A study of Mus musculus and Homo sapiens with 17 samples.

Results

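The activation keratins are Krt6a, Krt6b, Krt16 and Krt17, the keratins that epidermis makes when it is wounded, inflamed or hyperproliferative. They were taken by gene name, 4 of 54532 named genes in the mouse table and, as KRT6A, KRT6B, KRT16 and KRT17, 4 of 58735 in the human table. All passed the filter on low counts in both. The mouse libraries came from skin lesions and skin of C57BL/6-129 mice, all treated with the carcinogen DMBA and the tumour promoter TPA. They were 2 squamous cell carcinomas (SCC) labelled DUSP1 KO, 3 papillomas labelled DUSP1 KO, 3 SCC labelled WT and 3 samples of skin labelled WT, which had received DMBA and TPA too. The human libraries came from A431, an established squamous carcinoma line, with 3 libraries that carried a DUSP1 guide (DUSP1 KO) and 3 that carried a Tomato guide (control). In both arms 100000 cells were injected into mouse skin and recovered after 3 weeks, with mouse cells depleted. No papilloma labelled WT and no skin labelled KO were analysed here, so lesion type and genotype label cannot be told apart where both differ. The labels do not say whether libraries came from separate animals or cultures, nor whether the A431 KO cells were 1 clone. The descriptions of the DUSP1 KO libraries share a stem whose meaning is not stated. Those of DUSP1 KO replicates 2 and 3 carry the same ending and that of replicate 1 another, so a shared culture is possible. The counts of replicates 2 and 3 differed by a chi-square per degree of freedom of 5.14, so they were kept as 2 libraries. It was 12.3 and 13.6 with replicate 1 and 3.54 to 7.09 within control. Such a difference does not show that they came from separate cultures. The p-values measure only the spread between these libraries.

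Keratin filaments are built from pairs of a type I and a type II chain. Keratins 5 (type II) and 14 (type I) form the filaments of the basal layer, and the type II keratin 6 proteins pair mainly with the type I keratins 16 and 17 in keratinocytes that are activated. Interfollicular epidermis at rest makes little of them, while hair follicles express them all the time, among them keratins 6 and 17 in the outer root sheath and companion layer, and TPA is a classical inducer of them in mouse skin.

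On GRCm38 (mm10), with the gene models of GENCODE M21, the type II genes lie side by side on chromosome 15, Krt6b from 101676023 to 101680287 and Krt6a from 101689910 to 101694307, both on the minus strand with 9 exons. The type I genes lie on chromosome 11, Krt16 from 100246091 to 100248902 and Krt17 from 100256217 to 100261029, both on the minus strand with 8 exons. The coding sequences of Krt6a and Krt6b were identical at 1622 of 1659 aligned bases (97.8%), with the longest identical run 280 bases long. Of all stretches of 50 bases in the Krt6a transcript, 43.6% also occurred in that of Krt6b, and of stretches of 100 bases 29.5% did. Krt16 and Krt17 were identical at 78.2% of aligned coding bases and shared 0.396% of stretches of 50 bases. Of Krt17 and Krt14, the genes it was aligned with, Krt16 was closer to the basal type I keratin Krt14. They were identical at 86.5%, with 12.4% of stretches of 50 bases in Krt16 shared. The treatment of reads that fit more than 1 gene is not stated in the labels. The split between Krt6a and Krt6b is therefore uncertain. The stretches below show how alike each pair is. They are the windows of 90 coding bases, without gaps, in which the aligned pair differed most, with the bases that differ in capitals (12 of 90 in the first pair and 30 of 90 in the second). The first pair lies at chr15:101692484-101692573 (Krt6a) and chr15:101678303-101678392 (Krt6b), minus strand. The second pair spans an intron, at chr11:100247689-100247916 (Krt16) and chr11:100259300-100259754 (Krt17), minus strand, and only exon bases are shown.
Krt6a: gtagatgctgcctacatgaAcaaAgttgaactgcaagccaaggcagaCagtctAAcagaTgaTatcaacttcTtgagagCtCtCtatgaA
Krt6b: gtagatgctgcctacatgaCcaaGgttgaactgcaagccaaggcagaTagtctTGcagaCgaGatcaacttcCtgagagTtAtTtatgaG
Krt16: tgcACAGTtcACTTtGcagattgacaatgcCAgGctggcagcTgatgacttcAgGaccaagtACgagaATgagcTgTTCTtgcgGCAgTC
Krt17: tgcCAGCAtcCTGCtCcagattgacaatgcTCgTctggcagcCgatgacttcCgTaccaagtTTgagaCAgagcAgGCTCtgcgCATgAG

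Mouse libraries held 34.4 to 47.9 M counts (M, 1e6) and A431 libraries 41.2 to 53.5 M. In A431 DUSP1, a phosphatase that switches off MAP kinases, was at 73.6, 71.0 and 77.1 counts per 1e6 (CPM) in DUSP1 KO and at 471, 467 and 485 CPM in control. In mouse Dusp1 was not lower in the libraries labelled KO, with 139 and 174 CPM in SCC and 109 to 129 CPM in papillomas. It had 66.6 to 83.7 CPM in WT SCC and 52.4 to 109 CPM in WT skin. In SCC labelled KO it was higher than in WT SCC, by 1.07 ± 0.25 on the log2 scale (edgeR adjusted p = 0.0284). Its transcript therefore does not check those labels, and every mouse direction below rests on the labels alone. Mouse RNA came from whole sections. The 16 markers of epithelial keratinocytes summed to 18780 and 18785 CPM in SCC labelled KO and 14692 to 20418 CPM in papillomas labelled KO. In WT SCC they summed to 13688 to 14445 CPM and in WT skin to 5906 to 7202 CPM. None of the 16 was at 0 counts in any library. WT skin replicate 3 stood apart: its 10 markers of the companion layer and inner root sheath of the hair follicle summed to 13475 CPM, against 2098 and 109 CPM in the other WT skin libraries and 14.5 to 905 CPM over the lesions. In bulk RNA, fewer cells of a type and less RNA per cell cannot be told apart.

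The 4 keratins together took 4.75 and 4.35% of all counts in SCC labelled KO, 3.20 to 5.31% in papillomas labelled KO, 2.80 to 2.89% in WT SCC and 0.326 to 0.733% in WT skin. Krt6a, a type II chain, had 13268 and 11623 CPM in SCC labelled KO, and 12911, 7879 and 9322 CPM in papillomas labelled KO. It had 6618, 6799 and 6681 CPM in WT SCC and 699, 1129 and 360.4 CPM in WT skin. Its libraries followed the groups: every SCC and papilloma library labelled KO lay above every WT SCC, and every WT SCC above every WT skin. Krt6b, its near copy, had 24514 and 21072 CPM in SCC labelled KO, and 20136, 13224 and 13607 CPM in papillomas labelled KO. The values were 9612, 8034 and 8383 CPM in WT SCC and 1057, 1532 and 177 CPM in WT skin. Krt6b was the member whose 4 groups did not overlap at all, since both SCC labelled KO also lay above all 3 papillomas.

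Krt16, a type I chain, had 15082 and 12682 CPM in SCC labelled KO, and 19281, 10142 and 14151 CPM in papillomas labelled KO. In WT SCC it had 9916, 9606 and 9461 CPM and in WT skin 1282, 1858 and 196 CPM. The papillomas spread on both sides of the SCC labelled KO, and WT SCC lay below all of these. Krt17, a type I chain also of hair follicles, had 5418 and 4479 CPM in SCC labelled KO, and 6911, 3188 and 6061 CPM in papillomas labelled KO. It stood at 2957, 2903 and 2983 CPM in WT SCC and at 1776, 1376 and 2013 CPM in WT skin. Its order across groups was that of Krt16, but WT skin lay much closer to the lesions. WT skin replicate 3 was the lowest library for Krt6a, Krt6b and Krt16 and, for Krt17, the highest of WT skin. The WT SCC libraries were the most even, with coefficients of variation of 1.37% for Krt6a, 9.55% for Krt6b, 2.41% for Krt16 and 1.39% for Krt17, against 24.8 to 36.2% in the papillomas.

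**Figure D1:**
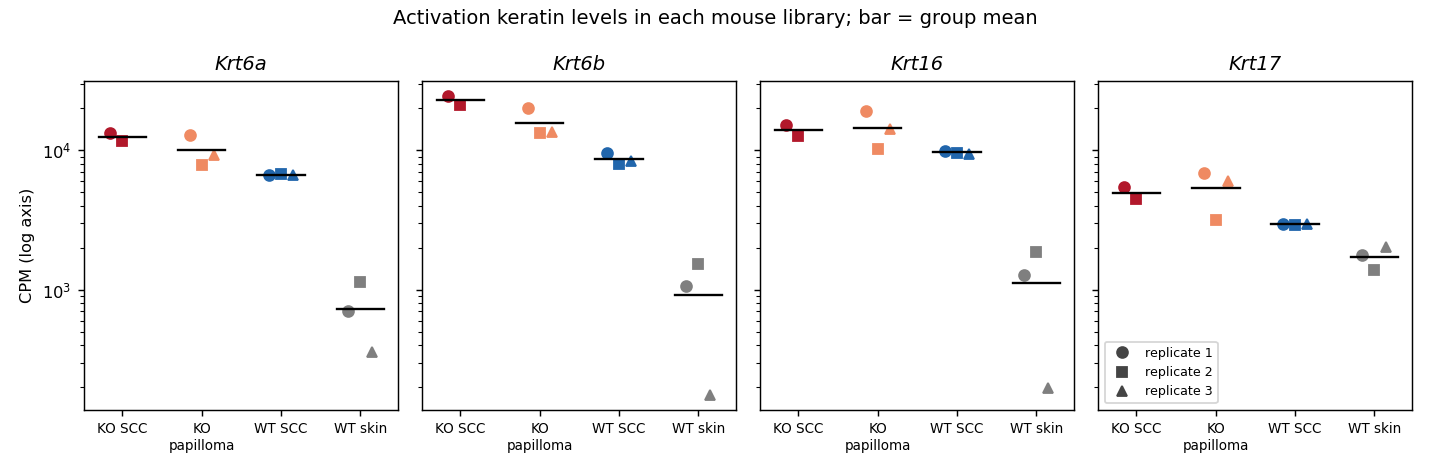
CPM of Krt6a, Krt6b, Krt16 and Krt17 in each of the 11 mouse libraries on a log axis, by group as labelled; points are libraries and bars group means. All 3 WT SCC lie close together between WT skin and the lesions labelled KO, and WT skin replicate 3 (grey triangle) is lowest for Krt6a, Krt6b and Krt16 but not for Krt17.

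All 4 keratins rose in WT SCC relative to WT skin, in a comparison in which 16.9% of all genes tested rose. Every WT SCC lay above every WT skin for each of them, as for 24.8% of all genes tested. By edgeR's quasi-likelihood test with Benjamini-Hochberg adjustment over all genes, Krt6a rose by 3.20 ± 0.36 on the log2 scale (SE, n = 3 and 3, adjusted p = 8.15e-05), which is 9.18-fold. Krt6b rose by 3.23 ± 0.58 (adjusted p = 0.00142) and Krt16 by 3.12 ± 0.61 (adjusted p = 0.00225). Krt17 rose by 0.78 ± 0.26 (adjusted p = 0.0332). The median over the 4 was 3.16, beside −0.16 over all genes tested. Leaving out WT skin replicate 3 gave 2.89, 2.76, 2.63 and 0.91 for Krt6a, Krt6b, Krt16 and Krt17, all past the threshold. The call for Krt17 was lost without WT skin replicate 1 or 2 or any 1 of the 3 WT SCC libraries, with adjusted p-values from 0.0667 to 0.113 and differences from 0.63 to 0.79. Beside this, all 10 markers of the companion layer and inner root sheath fell in WT SCC relative to WT skin. The share of all genes that fell there is not given here, and the part of hair follicles in the Krt17 level of skin was not tested.

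All 4 also rose in both kinds of lesion labelled KO relative to WT skin, which served as the control in these comparisons too. In SCC labelled KO 20.5% of genes rose, and 28.3% lay above every WT skin in both libraries. There Krt6a was higher by 4.09 ± 0.39 (adjusted p = 2.79e-05), Krt6b by 4.63 ± 0.64 (adjusted p = 0.000231), Krt16 by 3.64 ± 0.65 (adjusted p = 0.00105) and Krt17 by 1.52 ± 0.28 (adjusted p = 0.00135) on the log2 scale. In papillomas labelled KO 17.1% of genes rose, and 21.1% lay above every WT skin in all 3 libraries. There Krt6a was higher by 3.78 ± 0.37 (adjusted p = 4.00e-05), Krt6b by 4.09 ± 0.61 (adjusted p = 0.000424), Krt16 by 3.71 ± 0.63 (adjusted p = 0.000923) and Krt17 by 1.65 ± 0.26 (adjusted p = 0.000667). Each of these calls held when any 1 library was left out. Epithelial markers moved the same way: 15 of 16 rose in WT SCC and in papillomas and 14 of 16 in SCC labelled KO relative to WT skin, with list medians of 1.17, 1.38 and 1.17 (log2). The part of epithelial content in the keratin differences was not tested. Of 3 basal keratins, Krt5 rose by 1.27 ± 0.24 (adjusted p = 0.00175) and Krt14 by 2.20 ± 0.32 (adjusted p = 0.000364) in WT SCC relative to WT skin, and Krt15 fell by 2.37 ± 0.16 (adjusted p = 5.42e-06). Muscle, fibroblast and macrophage markers were highest in WT skin: the muscle list summed to 10.6 to 145 CPM over the lesions and 6088 to 8358 CPM in WT skin.

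Between SCC labelled KO and SCC labelled WT, the comparison of the genotype labels in carcinoma, each of the 4 keratins was higher in both libraries labelled KO than in all 3 labelled WT, as were 22.9% of all genes tested. With all 11 mouse libraries fitted together, 0 of the 4 passed the threshold (3 had an unadjusted p under 0.05), while 7.87% of all genes did. The log2 differences were 0.89 ± 0.37 for Krt6a (adjusted p = 0.160), 1.39 ± 0.59 for Krt6b (adjusted p = 0.173), 0.52 ± 0.62 for Krt16 (adjusted p = 0.665) and 0.75 ± 0.28 for Krt17 (adjusted p = 0.130), with a median of 0.82 beside −0.0068 over all genes. The calls differed between fits, and the cause was not tested. For Krt6a, Krt6b and Krt16, WT skin replicate 3 lay 3.13-fold (Krt6a) to 9.48-fold (Krt16) below the highest WT skin library. For Krt17 it was itself the highest. A fit without that library, chosen after seeing the data, gave 0.88 ± 0.23 for Krt6a (adjusted p = 0.0355), 1.38 ± 0.22 for Krt6b (adjusted p = 0.00394), 0.51 ± 0.24 for Krt16 (adjusted p = 0.212) and 0.73 ± 0.27 for Krt17 (adjusted p = 0.106). A fit of the 3 lesion groups without WT skin, chosen after seeing the data, gave 0.93 ± 0.21 for Krt6a (adjusted p = 0.0151), 1.43 ± 0.21 for Krt6b (adjusted p = 0.00231), 0.56 ± 0.24 for Krt16 (adjusted p = 0.142) and 0.79 ± 0.27 for Krt17 (adjusted p = 0.0775). A fit of both SCC groups alone called all 4, with adjusted p-values of 0.00339, 0.000654, 0.0348 and 0.00807, and DESeq2 called Krt6a and Krt17. Counted together, Krt6a and Krt6b were higher by 1.20 ± 0.47 (adjusted p = 0.141) in the fit of all libraries. Across the edgeR fits of single genes named here, sizes ran from 0.88 to 0.93 for Krt6a and 1.38 to 1.43 for Krt6b, while calls differed. All these fits compared the same SCC libraries, so the like sizes are no separate check. With each SCC library left out in turn, the differences ran from 0.798 to 0.986 for Krt6a and 1.283 to 1.499 for Krt6b.

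The basal type II keratin Krt5 was not higher in SCC labelled KO, at 7646 and 6659 CPM, than in WT SCC, at 7698, 9124 and 8830 CPM (log2 difference −0.26 ± 0.26, adjusted p = 0.605). Krt14 had 40074 and 37238 CPM in SCC labelled KO and 24951 to 28074 CPM in WT SCC (0.54 ± 0.34, adjusted p = 0.360). Beside the higher keratin levels, the 16 epithelial markers summed to 18780 and 18785 CPM in SCC labelled KO and 13688 to 14445 CPM in WT SCC, and 4 of them rose, among them the desmosomal cadherin Dsg3 by 1.23 ± 0.20. The other 12 did not pass, and the list median was −0.08 (log2). Markers of macrophages (237 and 283 CPM against 472 to 630 CPM in WT SCC) and of B and plasma cells (4.85 and 6.63 CPM against 50.8 to 61.3 CPM in WT SCC) summed lower in SCC labelled KO. Transcripts of 4 Y-linked genes had 4779 counts in SCC labelled KO replicate 2 and 0 counts in replicate 1 and in every papilloma and WT SCC, with 7 to 9552 counts in WT skin. The part of these differences in the keratin levels was not tested.

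Papillomas labelled KO gave a like picture against WT SCC: the groups did not overlap and all 4 keratins were higher in papillomas, as were 13% of all genes. Of the 4, 0 passed the threshold (1 had an unadjusted p under 0.05), while 5.25% of all genes did. The log2 differences were 0.58 ± 0.33 for Krt6a (adjusted p = 0.376), 0.85 ± 0.54 for Krt6b (adjusted p = 0.430), 0.59 ± 0.56 for Krt16 (adjusted p = 0.633) and 0.87 ± 0.26 for Krt17 (adjusted p = 0.0839). Krt17 passed with DESeq2 (0.89, adjusted p = 0.00724) and, in edgeR, when papilloma replicate 2, its lowest papilloma, was left out (1.14, adjusted p = 0.00926). Krt6b passed in the fit of the 3 lesion groups (0.86, adjusted p = 0.0207) and in that without WT skin replicate 3 (0.85, adjusted p = 0.0265). Lesion type and genotype label cannot be told apart in this pair.

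SCC labelled KO did not differ detectably from papillomas labelled KO in any member. With edgeR 0 of 4 passed, none had an unadjusted p under 0.05, DESeq2 called none, and 0.286% of all genes were called. In the fits of the 3 lesion groups, of both groups alone and without WT skin replicate 3, 1 of 4 had an unadjusted p under 0.05, Krt6b, and 0 passed. Krt6b alone had groups that did not overlap, higher in SCC as were 16.1% of all genes, with a log2 difference of 0.54 ± 0.59 (adjusted p = 0.702). The differences were 0.31 ± 0.37 for Krt6a (adjusted p = 0.731), −0.07 ± 0.63 for Krt16 (adjusted p = 0.978) and −0.12 ± 0.29 for Krt17 (adjusted p = 0.880). Of 4 suprabasal keratins of differentiating epidermis, 2 fell in SCC relative to papillomas, and the list median was −3.07. Krt1 fell by 2.97 ± 0.43 (adjusted p = 0.0300), and Krt10 fell by 2.91 ± 0.36 (adjusted p = 0.0196).

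**Figure D2:**
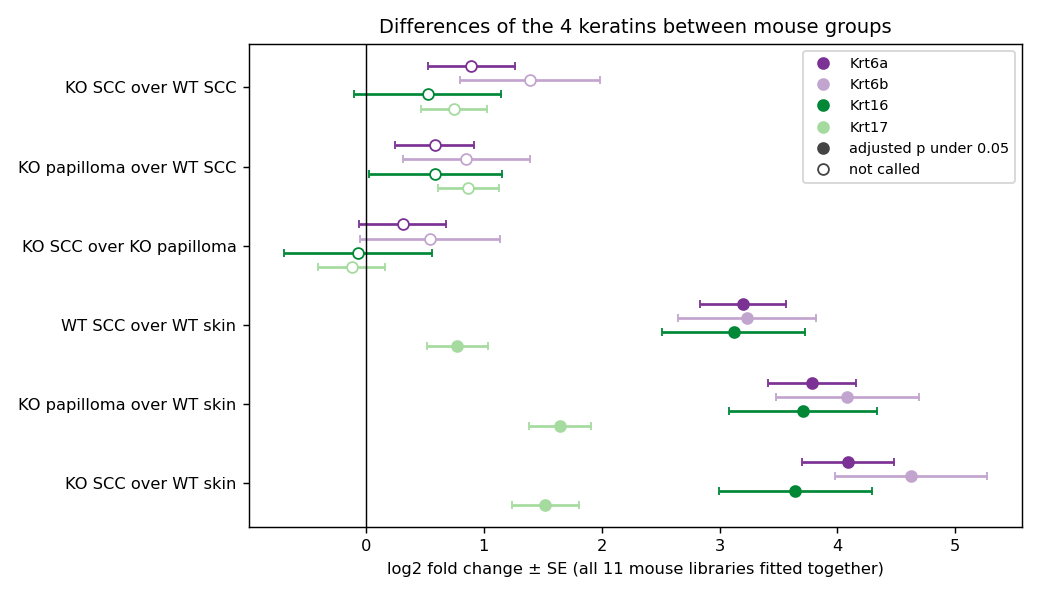
Log2 fold changes with SE of the 4 keratins in the 6 mouse comparisons (groups as labelled), from the fit of all 11 libraries; filled points have an adjusted p under 0.05. All 12 differences from WT skin are filled, with Krt17 the smallest in each, and the 12 differences among lesions are open, between −0.12 and 1.39.

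Ratios of 2 keratins within a library do not depend on library size. They were taken on counts without scaling for length, so they compare libraries and not the levels of the 2 genes. Krt6a stood at 1.74 and 1.75 times the counts of Krt5 in SCC labelled KO, 1.11 to 1.40 times in papillomas labelled KO, 0.745 to 0.860 times in WT SCC and 0.159 to 0.247 times in WT skin. The ratio of Krt6b to Krt5 ran the same way, 3.16 and 3.21 in SCC labelled KO, 1.79 to 2.19 in papillomas, 0.881 to 1.25 in WT SCC and 0.0778 to 0.335 in WT skin. Both ratios separated all 4 groups, with no overlap between neighbouring groups. Krt16 was at 0.341 and 0.376 times the counts of Krt14 in SCC labelled KO, 0.367 to 0.459 in papillomas, 0.353 to 0.379 in WT SCC and 0.0618 to 0.231 in WT skin. SCC labelled KO and WT SCC overlapped in it, with a mean log2 difference of −0.02 (exact permutation p = 0.8). Krt17 was at 0.120 and 0.135 times the counts of Krt14 in SCC labelled KO, 0.115 to 0.197 in papillomas, 0.105 to 0.120 in WT SCC and 0.171 to 0.635 in WT skin. SCC labelled KO lay above WT SCC in it by 0.20 on the log2 scale (exact permutation p = 0.2). With 2 or 3 libraries a group the smallest two-sided exact p is 0.1; it was reached for Krt6a and for Krt6b over Krt5 in every mouse comparison, and over the 42 ratio tests it gave an adjusted p of 0.175, so no ratio passed.

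Within the type II pair, Krt6b was at 1.81 and 1.85 times the counts of Krt6a in SCC labelled KO, 1.46 to 1.68 times in papillomas labelled KO, 1.18 to 1.45 times in WT SCC and 0.490 to 1.51 times in WT skin. SCC labelled KO lay above WT SCC by 0.50 on the log2 scale (exact permutation p = 0.1, the smallest possible; adjusted 0.175), and WT skin overlapped with WT SCC and papillomas. The 2 genes share many stretches, and the part of the counting rule in this ratio was not tested. Within the type I pair, Krt16 was at 2.78 and 2.83 times the counts of Krt17 in SCC labelled KO, 2.33 to 3.18 in papillomas, 3.17 to 3.35 in WT SCC and 0.0974 to 1.35 in WT skin. The order of the 2 type I genes, whose transcripts are 1565 (Krt16) and 1551 (Krt17) bases long, thus differed between lesions and skin. Krt16 stood higher in all 8 lesion libraries, and Krt17 in 2 of the 3 of WT skin.

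**Figure D3:**
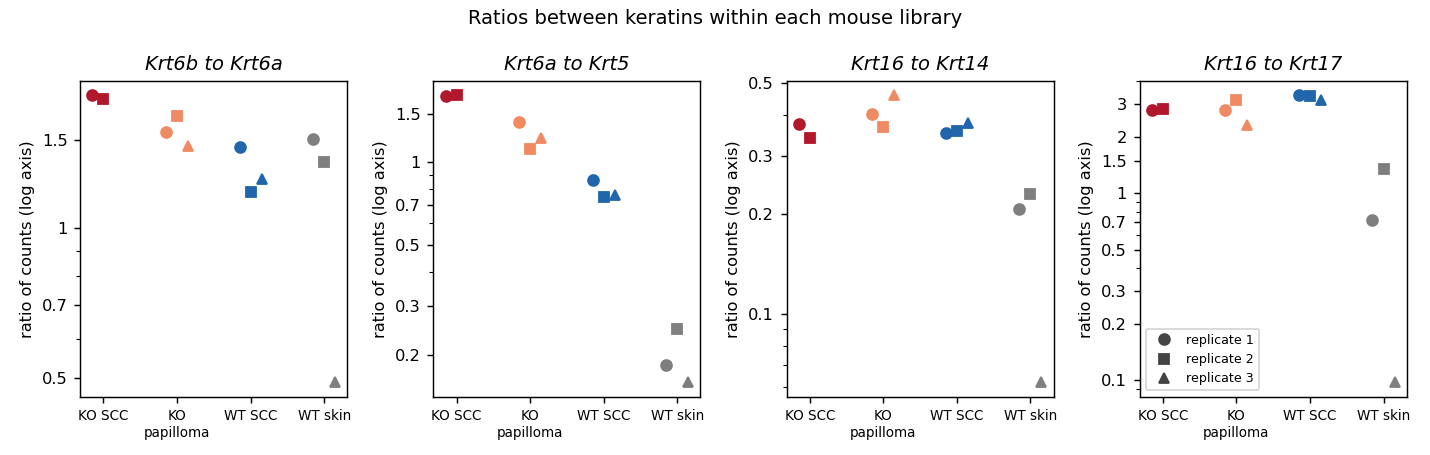
Ratios of counts within each mouse library on log axes that differ between panels, by group as labelled; points are libraries. Krt6a to Krt5 separates all 4 groups, Krt16 to Krt14 overlaps between SCC labelled KO and WT SCC, and WT skin replicate 3 has the lowest Krt6b to Krt6a, Krt6a to Krt5, Krt16 to Krt14 and Krt16 to Krt17.

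Levels of different genes were compared after division by the length of the main transcript (CPM per kb). In SCC labelled KO Krt6b led with a mean of 10198 CPM per kb, ahead of Krt16 (8870), Krt6a (5463) and Krt17 (3190). In papillomas labelled KO the order was Krt16 (9281), Krt6b (7005), Krt6a (4406) and Krt17 (3473), and in WT SCC it was Krt16 (6173), Krt6b (3882), Krt6a (2941) and Krt17 (1901). Krt6b was the highest in both SCC libraries labelled KO and Krt16 in all 6 other lesions, so the leading gene differed between the SCC groups. Krt6a shares 43.6% of its stretches of 50 bases with Krt6b, and Krt16 shares 12.4% with Krt14. The counting rule for such reads is not stated, and its part in the orders and sums of this paragraph was not tested. In WT skin Krt17 led, with 1110 ± 208 CPM per kb (SD, n = 3), above Krt16 with 710 ± 539, Krt6b with 412 ± 308 and Krt6a with 320 ± 169, but Krt16 was the highest in WT skin replicate 2 and the spreads of these neighbours overlapped. Krt17 made up 11.7 and 11.3% of the 4 per-kb levels in SCC labelled KO, 11.5 to 16.9% in papillomas, 12.3 to 13.1% in WT SCC and 27.2 to 78.2% in WT skin. The sum of the type II pair over that of the type I pair, per kb, was 1.28 and 1.32 in SCC labelled KO, 0.786 to 1.10 in papillomas, 0.821 to 0.874 in WT SCC and 0.167 to 0.569 in WT skin. The type II transcripts thus exceeded the type I transcripts of the set in both SCC labelled KO and in 1 papilloma only. These are transcript levels and not amounts of protein, and Krt5 and Krt14 are outside these sums.

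**Figure D4:**
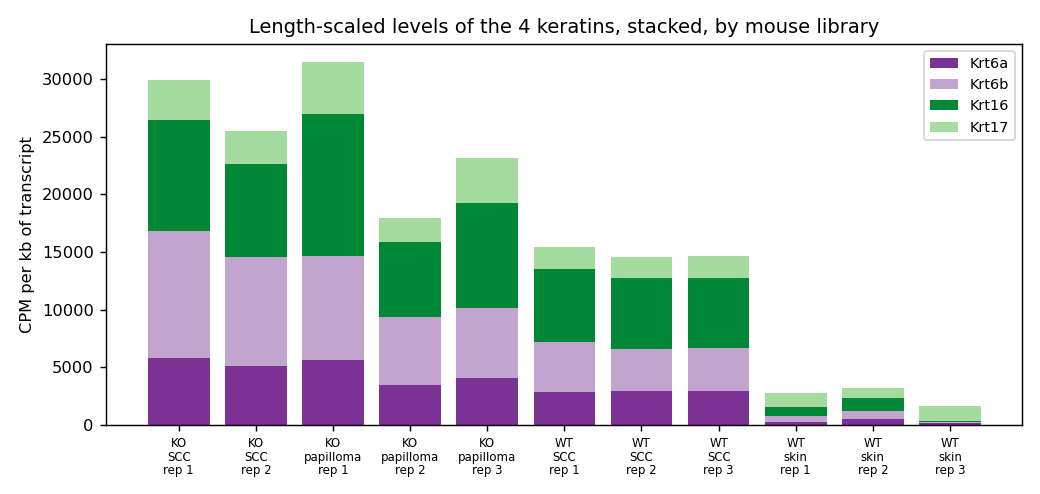
CPM per kb of transcript of Krt6a, Krt6b, Krt16 and Krt17, stacked, in each mouse library by group as labelled. Krt6b takes the largest share in both SCC labelled KO, Krt16 in the papillomas and WT SCC, and Krt17 the largest in WT skin replicates 1 and 3.

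The genes other than the 4 members whose pattern was most like each member over the 11 libraries were found by the root mean square difference of log2 CPM, each gene centred on its mean, among 10221 genes of moderate or high level. For Krt6a, whose own SD was 1.75, they were Dsc2, a desmosomal cadherin (0.28), Ptprz1, a receptor phosphatase (0.31), Cemip, a hyaluronan-degrading protein (0.31), and Alox12b, an epidermal lipoxygenase (0.35). For Krt6b (SD 2.13) they were the phospholipase Pla2g4d (0.35), Ptprz1 (0.39) and the glutathione transferases Gsto1 (0.40) and Gsta4 (0.43). For Krt16 (SD 1.94) they were the cornified envelope precursor Sprr1b (0.37), Ptprz1 (0.40), Pla2g4d (0.46) and 2610528A11Rik (0.49). Krt17, which varied least (SD 0.71), had Poc1a, Pnpla1, Fchsd1 and Gm5424 nearest, at 0.23 to 0.24. Between members, Krt6b and Krt16 differed by 0.36, Krt6a and Krt16 by 0.45 and Krt6a and Krt6b by 0.50, while Krt17 differed from the other members by 1.23 to 1.63. Over these 11 libraries Krt6b was thus nearer to Krt16, a gene on another chromosome, than to its near copy. Krt16 was nearer to Krt6b than to any gene named for it above. The first order rests on WT skin replicate 3, where Krt6b was at 0.490 times the counts of Krt6a. It was at 1.36 and 1.51 times in the other WT skin libraries and at 1.18 to 1.85 times over the lesions. Outside WT skin replicate 3, Krt6b kept closer to a fixed multiple of Krt6a than of Krt16. The first order thus held only with that library included. The part of reads shared by the near copies was not tested. These likenesses are descriptions.

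Around the keratins, 17 other genes of activated keratinocytes (antimicrobial S100 and defensin genes, Sprr and Lce envelope genes, interleukin 1 family members) rose in part. In SCC labelled KO relative to WT SCC 9 of 17 rose, where 7.87% of all genes were called. In papillomas relative to WT SCC 5 of 17 rose, where 5.25% of all genes were called. None fell, and the list medians were 1.22 and 1.07. The interleukin 36 gene Il1f6 rose by 3.20 ± 0.29 (adjusted p = 0.000279), the envelope gene Lce3c by 3.06 ± 0.48 (adjusted p = 0.00541) and the interleukin 1 antagonist Il1rn by 1.37 ± 0.24 (adjusted p = 0.00902) in SCC labelled KO relative to WT SCC. Relative to WT skin 11 of 17 rose in WT SCC, 16 in papillomas and 15 in SCC labelled KO. The shares of all genes that rose were 16.9, 17.1 and 20.5%, in that order.

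Of 17 ligands that induce these keratins (EGF family and cytokines), 1 rose in SCC labelled KO relative to WT SCC, where 7.87% of all genes were called: the EGF receptor ligand Ereg by 1.19 ± 0.25 (adjusted p = 0.0178). Ereg was also the 1 that rose in papillomas, where 5.25% of all genes were called, by 0.89 ± 0.23 (adjusted p = 0.0480). In WT SCC relative to WT skin, where 16.9% of all genes rose, 7 of 17 ligands rose and 3 fell. Among the 7 were Hbegf by 3.21 ± 0.29, Areg by 2.93 ± 0.31 and Tgfa by 2.03 ± 0.25, all ligands of the EGF receptor. Of 16 receptors for these ligands none rose and 6 fell in WT SCC relative to WT skin, and 1 fell in SCC labelled KO relative to WT SCC, the oncostatin M receptor Osmr, which fell by 0.66 ± 0.16 (adjusted p = 0.0297). The share of all genes that fell in WT SCC relative to WT skin is not given here. The falls of ligands and receptors in that comparison cannot be set against it. Receptors of stromal and immune cells enter such counts, and the part of those cells was not tested.

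As background for the next counts, 7.87% of all genes were called in SCC labelled KO relative to WT SCC. In WT SCC relative to WT skin 16.9% of all genes rose, and the share that fell is not given here. Of 19 transcription factors linked to the promoters of these keratins, none rose and 5 fell in SCC labelled KO relative to WT SCC, with a list median of −0.49. The AP-1 member Jun fell by 0.82 ± 0.19 (adjusted p = 0.0252) and Jund fell by 0.79 ± 0.18 (adjusted p = 0.0254). The 4 keratins lay higher in the same libraries, though 0 of 4 passed the threshold in the fit of all libraries. The part of these factors, and of the cells that carry them, in the keratin levels was not tested. In WT SCC relative to WT skin 7 of 19 rose and 4 fell, with the AP-1 member Fosl1 up by 3.89 ± 0.21 and Nfe2l2, which encodes the oxidative stress factor NRF2, up by 2.61 ± 0.15. Of 12 linker proteins of keratin filaments, 1 rose in SCC labelled KO relative to WT SCC, periplakin (Ppl) by 0.86 ± 0.15 (adjusted p = 0.00904), and 8 rose in WT SCC relative to WT skin, among them the keratin-binding 14-3-3 protein Sfn by 1.93 ± 0.23. Of 12 proliferation genes, 10 rose in WT SCC relative to WT skin and 1, Bub1, rose in SCC labelled KO relative to WT SCC.

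In A431 cells recovered from xenografts, KRT16 fell and KRT6B was slightly lower in DUSP1 KO, while KRT6A and KRT17 did not pass the threshold. KRT16 had 4089, 4243 and 4348 CPM in DUSP1 KO and 5696, 5371 and 5963 CPM in control. KRT6B had 2275, 2285 and 2250 CPM in DUSP1 KO and 2534, 2321 and 2613 CPM in control. The groups did not overlap in either gene, as in 28.2% of all genes tested that lay lower, with KRT16 apart by more than the spread within a group. KRT6A had 6478, 6626 and 6355 CPM in DUSP1 KO and 6680, 6482 and 7195 CPM in control, and KRT17 had 9192, 9490 and 9639 CPM in DUSP1 KO and 9262, 8850 and 9625 CPM in control. In these the groups overlapped.

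KRT16 fell by 0.43 ± 0.04 on the log2 scale (adjusted p = 2.58e-07), to 0.745 of control, and KRT6B fell by 0.13 ± 0.04 (adjusted p = 0.0174), 2 of 4 members lower where 24.5% of all genes tested were lower and 47.6% were called. KRT6A differed by −0.07 ± 0.04 (adjusted p = 0.203) and KRT17 by 0.03 ± 0.04 (adjusted p = 0.542). The call for KRT6B was lost without control replicate 1 or 3 or DUSP1 KO replicate 3, with adjusted p-values of 0.0615, 0.0882 and 0.0743, and differences of −0.13, −0.10 and −0.13. KRT16 kept its call without any 1 library.

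Near copies bear on both. KRT6C, another human keratin 6 gene, had 593, 612 and 602 CPM in DUSP1 KO and 878, 892 and 909 CPM in control, a fall by 0.57 ± 0.04 (adjusted p = 3.43e-09). With KRT6A, KRT6B and KRT6C counted together the difference was −0.12 ± 0.04 (adjusted p = 0.0171). The pseudogene KRT16P6 went the other way to KRT16, with 859, 914 and 903 CPM in DUSP1 KO and 475, 461 and 476 CPM in control, a rise by 0.92 on the log2 scale (adjusted p = 1.06e-11). Counting KRT16 together with its pseudogenes, a setting chosen after seeing the data, left it lower by −0.26 ± 0.04 (adjusted p = 4.62e-05), a smaller difference by over 1.5 times. Within a library KRT16 was at 0.445 to 0.451 times the counts of KRT17 in DUSP1 KO and 0.607 to 0.620 times in control, and at 0.164 to 0.176 times the counts of KRT14 in DUSP1 KO and 0.234 to 0.238 times in control.

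**Figure D5:**
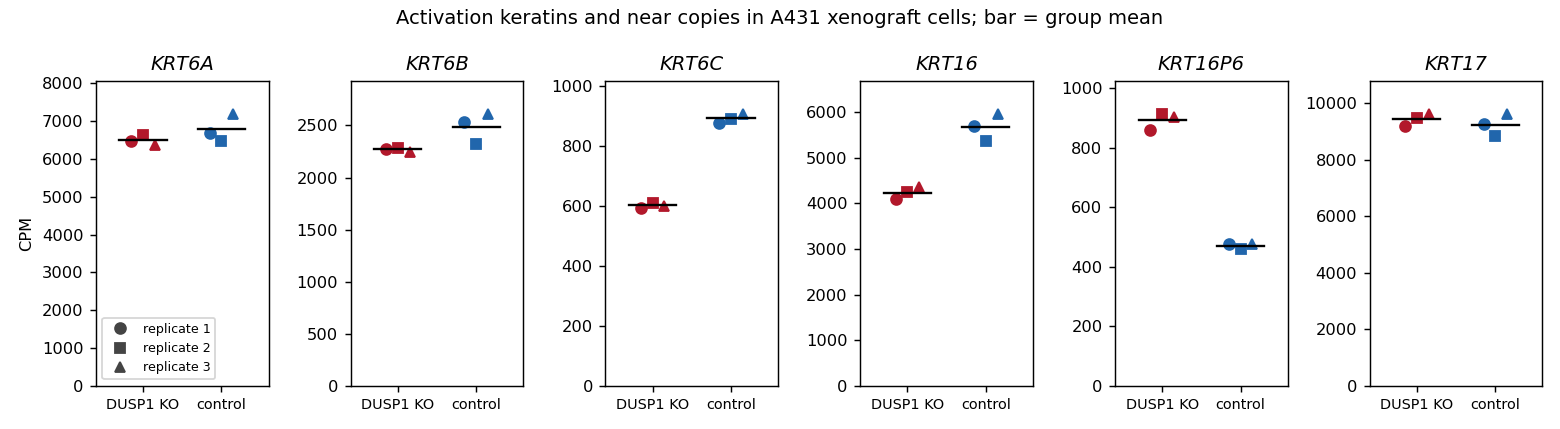
CPM of KRT6A, KRT6B, KRT6C, KRT16, its pseudogene KRT16P6 and KRT17 in the A431 libraries; points are libraries, bars are group means, and each panel has its own axis from 0. KRT16 and KRT6C lie lower and KRT16P6 higher in all 3 DUSP1 KO libraries, and KRT6A and KRT17 overlap.

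The basal partners overlapped between the A431 groups: KRT5 had 17455, 17977 and 17840 CPM in DUSP1 KO and 18451, 17802 and 18652 CPM in control, and KRT14 had 24568, 25848 and 24722 CPM in DUSP1 KO and 24297, 22573 and 25230 CPM in control. In this comparison 47.6% of all genes tested were called, the background for each count below. The 16 epithelial markers summed to 19837 to 20359 CPM in DUSP1 KO and 23400 to 23556 CPM in control, with 10 lower and 4 higher. The part of this in the fall of KRT16 was not tested. Of 13 tested activation genes outside the keratins, 5 rose and 3 fell, with the envelope gene SPRR1A up by 1.18 ± 0.04 on the log2 scale and the elastase inhibitor PI3 up by 0.93 ± 0.04. Of 13 ligands 4 rose and 6 fell, with AREG up by 0.56 ± 0.05 and the cytokine IL24 down, at 0.766 CPM in DUSP1 KO and 2.97 CPM in control. Of 16 receptors 7 rose and 5 fell, and EGFR, which A431 cells carry in many copies, fell by 0.66 ± 0.04 to a mean of 1659 CPM in DUSP1 KO, against 2613 CPM in control. Of 19 transcription factors 3 rose and 13 fell, with a list median of −0.46 beside 0.0065 over all genes. FOS fell by 1.11 ± 0.04 and FOSL2 fell by 0.81 ± 0.05. Of 12 linker proteins 2 rose and 7 fell, and among them desmoplakin (DSP) fell by 0.49 ± 0.04. Of 12 proliferation genes 1 rose and 9 fell.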

How the data were processed

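RNA was measured with a stranded poly(A) kit, from whole frozen sections in mouse and from recovered tumour cells in A431, per the labels' protocols. The authors deposited raw counts per gene, 1 table per species, not normalized. HISAT2, StringTie and DESeq with the builds mm10 and hg38 are named in the submitters' processing notes, without versions; they state neither the counting rule nor the annotation. Features without a gene name (1456 in mouse, 223 in A431) held 0.115 to 0.496% and 0.190 to 0.211% of a library and were left out.

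The 11 mouse libraries (4 groups, 6 comparisons) and the 6 A431 libraries were fitted apart with edgeR 4.0.16 in R 4.3.3: default filter, TMM, quasi-likelihood test, two-sided, Benjamini-Hochberg adjustment over the 22371 mouse or 18090 A431 genes tested, threshold 0.05. SE is the log2 fold change over the root of F. CPM are counts per 1e6 of the TMM-scaled library size. Unless DESeq2 1.42.0 is named, adjusted p-values come from this test. Ratios used counts plus 0.5 for the log2 tests, by exact permutation. Replicates differed beyond sampling noise (chi-square per degree of freedom 15.4 to 261 in mouse, 3.54 to 13.6 in A431). Totals of 34.4 to 53.5 M make counting error small beside the spread between libraries, which was a coefficient of variation of 36.6% in mouse and 6.11% in A431. Same-numbered mouse libraries correlated by −0.41 to 0.17 in their deviations, so numbers were not taken to pair them. The code was tested on simulated data.

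Transcript lengths, positions and sequences came from GENCODE M21 on GRCm38, main transcripts. The keratins and the gene lists were chosen with earlier results of these data known. Named genes were the 4 members, up to 3 called genes of a list by p, 4 genes nearest each member with an average log2 CPM of at least 3, and partners or near copies. KRT16P6 was named after its values were seen. Alternatives were other size factors, no filter, DESeq2, a replicate block, a fit of the compared groups alone, leaving out each library, near copies counted together, another pseudocount for the ratios and, added later, fits without WT skin or without its replicate 3. Some results are not reported here.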

Additional observations from a re-analysis of the deposited data

Results flagged for a closer look

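Krt6b and Krt16 lay in opposite directions in the mouse carcinomas and in A431, with every library of a group on 1 side of the other group. They were picked by that rule. Of all mouse genes tested, 22.9% lay higher in every SCC labelled KO than in every WT SCC. Of all A431 genes tested, 28.2% lay lower in every DUSP1 KO library than in every control. Krt6b was 1.39 higher (log2) in SCC labelled KO than in WT SCC, and KRT6B differed by −0.13 in A431 DUSP1 KO relative to control. KRT6B kept its call in 3 of the 6 fits without a single library. Krt16 was 0.52 higher in SCC labelled KO than in WT SCC, and KRT16 differed by −0.43 in A431 DUSP1 KO relative to control. The difference between the systems was not tested, the mouse values did not pass the threshold, and the mouse labels are not checked by the Dusp1 transcript. Groups held at most 3 libraries, so single libraries that stand apart could not be tested.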

How the results depend on the processing

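Of 332 values of members under alternatives, 300 kept their direction and their side of the threshold, 18 gained a call, 8 lost one and 6 turned direction. Differences from WT skin kept their calls in every alternative except that of Krt17 in WT SCC without single libraries (0.63 to 0.91). In SCC labelled KO relative to WT SCC, Krt6b was 1.45 without the filter, Krt6a 0.93 and Krt17 0.79 with DESeq2, and Krt6a, Krt6b, Krt16 and Krt17 were 0.88, 1.38, 0.51 and 0.74 with the 2 groups fitted alone; without WT skin Krt6a was 0.93 and Krt6b 1.43, and without its replicate 3 alone 0.88 and 1.38. These calls were gained. In papillomas relative to WT SCC, Krt17 was 0.88 without the filter and 0.89 with DESeq2, and Krt6b was 0.86 with the groups fitted alone, 0.86 without WT skin and 0.85 without its replicate 3; without single libraries Krt17 ran from 0.65 to 1.14. In SCC relative to papillomas labelled KO, Krt17 turned to 0.0013 with the replicate block, and without single libraries Krt16 ran from −0.27 to 0.19 and Krt17 from −0.39 to 0.10. In A431, KRT6A, KRT6B and KRT6C together gave −0.12, KRT6B ran from −0.19 to −0.10 and KRT17 from −0.0092 to 0.055 without single libraries.

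Genes called in SCC labelled KO relative to WT SCC numbered 1760 in the fit of all groups, 3328 with DESeq2, 798 with the replicate block, 4160 with the 2 groups alone, 3012 without WT skin and 302 to 975 without single libraries. In papillomas relative to WT SCC they numbered 1175, against 1854 without the filter, 2160 with DESeq2, 1797 with the groups alone, 1854 without WT skin and 478 to 1100 without single libraries. In SCC relative to papillomas they numbered 64, against 611 without the filter, 823 with DESeq2, 1 with the block, 291 without WT skin, 152 without its replicate 3 and 0 to 84 without single libraries; the 0 by edgeR without papilloma replicate 3 or SCC replicate 1 had 2560 and 1288 genes at an unadjusted p under 0.05. In SCC labelled KO relative to WT skin they numbered 10013 and, without single libraries, 5884 to 9891. The replicate block changed no call of a member. The cause of these shifts was not tested.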

Other observations

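Genes of the same loci that are not members were also read. Gm5478, a gene near Krt6b on chromosome 15 with 90.4% of aligned coding bases identical to Krt6b, had 731 and 384 CPM in SCC labelled KO, 152 to 311 CPM in papillomas labelled KO, 86.6 to 92.9 CPM in WT SCC and 0.758 to 10.2 CPM in WT skin. By edgeR it rose by 2.63 ± 0.70 on the log2 scale in SCC labelled KO relative to WT SCC (adjusted p = 0.0455). Of stretches of 50 bases in the Krt6b transcript, 9.33% also occurred in that of Gm5478. The part of reads from Krt6b in the level of Gm5478 was not tested. Krt42, a type I keratin gene near Krt17 on chromosome 11, had 8.54 and 11.9 CPM in SCC labelled KO, 14.9 to 42.2 CPM in papillomas labelled KO, 1.45 to 3.01 CPM in WT SCC and 2.15 to 9.83 CPM in WT skin, and rose by 2.14 ± 0.58 in SCC labelled KO relative to WT SCC (adjusted p = 0.0478) and by 3.52 ± 0.57 in papillomas relative to WT SCC (adjusted p = 0.00464). Gm5478 was chosen after its values were seen. Krt75, the type II gene of the companion layer, had 0.0618 to 16.8 CPM over the lesions and 13.7 to 439 CPM in WT skin, the highest in WT skin replicate 3.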
